A study of Saccharomyces cerevisiae with 6 samples.

Results

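The genes described here encode the machinery that copies DNA, from the proteins that mark replication origins to the enzymes that supply deoxyribonucleotides. They are 44 named genes, and each was found as an entry under a single gene name among the 6932 entries of a table of transcript levels from meiotic cultures of budding yeast, Saccharomyces cerevisiae. The genes were chosen by name and not by a rule on their measured values, though earlier results of these data were known. The 6 RNA samples, all labelled as 4 h in meiosis, came in pairs from wild type cultures (WT) and from cultures of bas1 and of ino4 mutants, so each of the 3 genotypes had 2. Bas1 is a Myb-related activator of purine and histidine synthesis genes, while Ino4, a basic helix-loop-helix protein, is an activator of phospholipid synthesis genes. The sources used here do not give the alleles, the strain background or the number of strains per genotype. The authors' table gives 1 value per gene and genotype in FPKM, fragments per kilobase scaled to each library's mapped fragments, so the spread between replicate samples cannot be seen. No test was possible, no difference below has a replicate check, and "higher" and "lower" describe the deposited values alone.

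Replication begins at origins bound by the origin recognition complex, ORC. With Cdc6 and Cdt1, ORC loads the ring-shaped MCM helicase onto DNA in a step called licensing. The kinase Cdc7, with its activator Dbf4, and cyclin-dependent kinase then allow Cdc45 and the GINS complex to join MCM, which starts unwinding. Polymerase alpha with its primase lays down primers, polymerase epsilon copies mainly the leading strand and polymerase delta mainly the lagging strand, both aided by the ring-shaped clamp PCNA and its loader RFC, while RPA coats the single-stranded DNA. In the mitotic cycle of budding yeast many of these genes are switched on late in G1 by MBF, a factor made of Mbp1 and Swi6 that binds a short DNA element, the MCB box. In meiosis the genome is copied once before recombination and the pair of divisions, and RPA also coats the single-stranded DNA of recombination intermediates.

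Of the 6932 entries, 6153 were compared, those with an FPKM of at least 1 in some genotype and above 0 in all 3, and all 44 replication genes were among them. Each targeted gene was lowest in its own mutant, with BAS1 at an FPKM of 19.4 (WT), 0.00985 (bas1) and 21.1 (ino4), and INO4 at 307 (WT), 271 (bas1) and 0.339 (ino4). The number of reads behind each value is unknown. The cultures are populations of cells, so fewer cells at a stage and less RNA per cell cannot be told apart. Of the 44 genes, 8 share their listed position with a second entry (18.2%, against 14.7% of all entries compared). The sources used here do not say whether strand was used in counting, so reads of the partner may enter the values of those 8.

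The MCB box, ACGCGT, was looked for in a window from 250 bases before to 50 bases after the first base of the start codon of each gene, in the RefSeq sequence of the S288C genome, assembly R64. The box reads the same on both strands. It was present in the windows of 18 of the 44 replication genes (40.9%) and of 184 of 6001 nuclear protein-coding genes (3.07%). At least 2 boxes were present in 5 of the 44 (11.4%) and in 21 of the 6001 (0.350%). A match of letters is a description of the sequence and not a measurement of binding. In all 18 genes the box lay before the start codon, at positions from -240 to -85 relative to it. The whole windows of 3 genes are shown, with the box in capitals and all else in lower case. RFA2 had the highest level among the genes with a box in bas1 and ino4, and POL30 and SLD2 had the largest differences. RFA2 encodes the middle subunit of RPA, POL30 encodes PCNA, and SLD2 encodes a firing factor.
RFA2, chrXIV:48037-48336, plus strand: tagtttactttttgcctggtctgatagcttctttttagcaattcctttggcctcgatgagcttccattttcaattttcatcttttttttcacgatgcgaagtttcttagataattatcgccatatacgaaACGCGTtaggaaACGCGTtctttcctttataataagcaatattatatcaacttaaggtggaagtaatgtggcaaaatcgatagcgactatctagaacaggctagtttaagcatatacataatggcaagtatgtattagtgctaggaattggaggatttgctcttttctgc
POL30, chrII:425717-426016, minus strand: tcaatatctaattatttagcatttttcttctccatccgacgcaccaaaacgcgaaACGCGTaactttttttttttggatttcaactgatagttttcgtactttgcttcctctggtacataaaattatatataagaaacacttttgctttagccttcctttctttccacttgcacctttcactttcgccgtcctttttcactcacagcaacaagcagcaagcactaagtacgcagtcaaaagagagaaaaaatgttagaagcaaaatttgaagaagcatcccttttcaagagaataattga
SLD2, chrXI:234176-234475, plus strand: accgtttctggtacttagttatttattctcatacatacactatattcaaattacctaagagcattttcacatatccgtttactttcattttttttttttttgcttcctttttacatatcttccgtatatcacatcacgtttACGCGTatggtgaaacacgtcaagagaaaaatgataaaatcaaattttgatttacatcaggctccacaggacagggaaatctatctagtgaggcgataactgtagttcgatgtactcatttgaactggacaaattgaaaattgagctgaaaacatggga

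The other windows with a pair of boxes belonged to RFA1, POL1, POL12 and CDC45. Their boxes are shown with 12 bases on either side, because a pair of boxes was rarer than a single box among all genes.
RFA1 first box, chrI:158767-158796, minus strand: tggaaaaatgtcACGCGTaaaaattagacg
RFA1 second box, chrI:158737-158766, minus strand: aggcgacaaaagACGCGTgaactaacataa
POL1 first box, chrXIV:429867-429896, plus strand: acatctattcaaACGCGTtaaaattttttt
POL1 second box, chrXIV:429902-429931, plus strand: cctataagtaaaACGCGTcgcgtgtatcca
POL12 first box, chrII:153815-153844, minus strand: atagcgtggtagACGCGTaattttttttta
POL12 second box, chrII:153792-153821, minus strand: ttttttaccgtgACGCGTctcaccagagtt
CDC45 first box, chrXII:346104-346133, minus strand: gtttcattcacgACGCGTatttttttttca
CDC45 second box, chrXII:346074-346103, minus strand: acatatcatctaACGCGTtttaagaaattt

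The boxes of POL31, POL32 and CDC6 are shown because these genes, with SLD2 and POL30, had the lowest values in bas1 relative to WT. They were thus picked by their values, and CDC45 and RFA2, whose boxes are shown above, were higher in bas1 than in WT.
POL31, chrX:449083-449112, plus strand: acgattaatcagACGCGTctgattaatttc
POL32, chrX:517638-517667, minus strand: cggaagtagtaaACGCGTatgagttaaaca
CDC6, chrX:69122-69151, plus strand: acgcgaggcctcACGCGTcggagtttccag

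**Figure D1:**
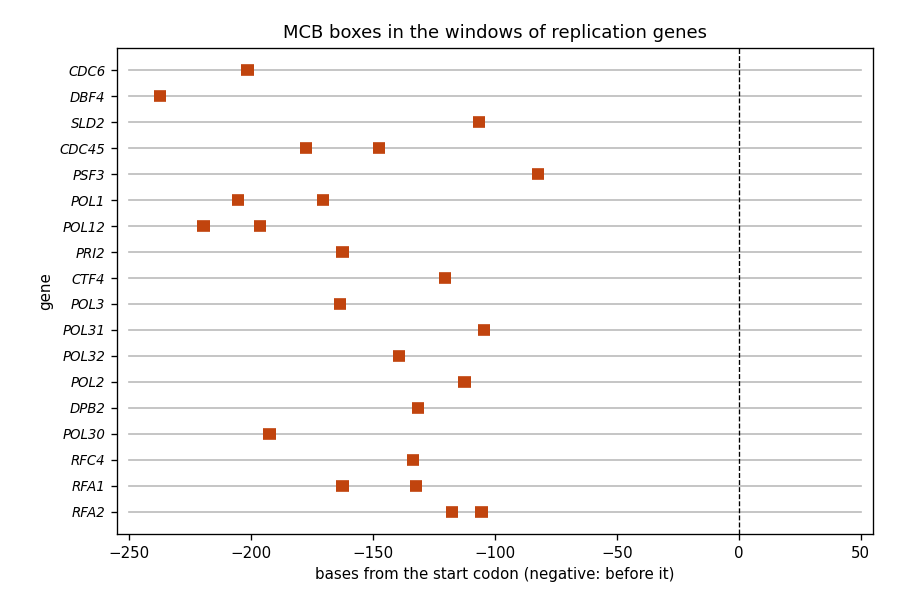
Position of each MCB box (red block) in the 18 replication genes that have one, on a line from 250 bases before to 50 bases after the start codon (dashed line); the horizontal axis is in bases and each row is a gene. Every box lies to the left of the dashed line, and CDC45, POL1, POL12, RFA1 and RFA2 each have a pair.

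Boxes were shared out unevenly among the complexes. All 3 genes of polymerase delta had one, as did POL1, POL12 and PRI2 of polymerase alpha and primase. So did POL2 and DPB2 of polymerase epsilon and RFA1 and RFA2 of RPA. The rest were RFC4 of the clamp loader, PSF3 of GINS, CDC45, CDC6, POL30, SLD2, CTF4 and DBF4. None of the 6 ORC genes, the 3 MCM genes or the 3 ribonucleotide reductase genes had one in this window, which says only that these letters do not occur within it. Other short elements were searched on both strands. The core CGCGAAA, bound by SBF, a relative of MBF, occurred in 5 of 44 windows (11.4%, against 3.60% of all). In POL30 it shares a base with the MCB box. The core TGACTC, bound by Bas1 and Gcn4, occurred in 4 of 44 (9.09%, against 7.98%), in PSF2, PSF3, SLD5 and RFC5. The core CATGTG, bound by Ino2 and Ino4, occurred in 3 of 44 (6.82%, against 6.93%), in CDC45, DPB2 and ORC4. The core GGCGGC, bound by the meiotic regulator Ume6, occurred in 2 of 44 (4.55%, against 5.13%), ORC1 and POL31, and the core CACAAA, bound by the meiotic activator Ndt80, in 5 of 44 (11.4%, against 18.8%).

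Across the 3 genotypes the replication genes stayed close together, about as close as other entries of similar level. None of the 44 was 2-fold apart between any pair of genotypes, where 2-fold means a difference of at least 1 on the log2(FPKM + 1) scale. This is 0 of 44 for bas1 against WT, where 3.32% of all 6153 entries were 2-fold apart (0.975% higher and 2.34% lower). It is also 0 of 44 for ino4 against WT, where 2.44% of entries were (0.683% higher and 1.76% lower), and for bas1 against ino4, where 5.56% were (2.78% on each side). At these background shares a set of 44 genes would hold few such genes in any case. For each gene the highest of its 3 values was divided by the lowest. This fold ran from 1.03 for ORC4 and MCM6 to 1.60 for SLD2, with a median of 1.24, and it was below 1.5 for 42 of the 44. Over the 5228 entries within the same range of FPKM the median was also 1.24.

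Levels differed far more between genes than between genotypes. FPKM is expressed per length, so levels can be set beside each other. In WT they ran from 6.36 for DPB2 to 429 for RFA3, a 67.5-fold range with a median of 37.0, below the median of 53.5 over all entries compared. In bas1 the range was from 6.75 to 414 and the median 41.5, and in ino4 it was from 6.05 to 481 with a median of 43.0.

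**Figure D2:**
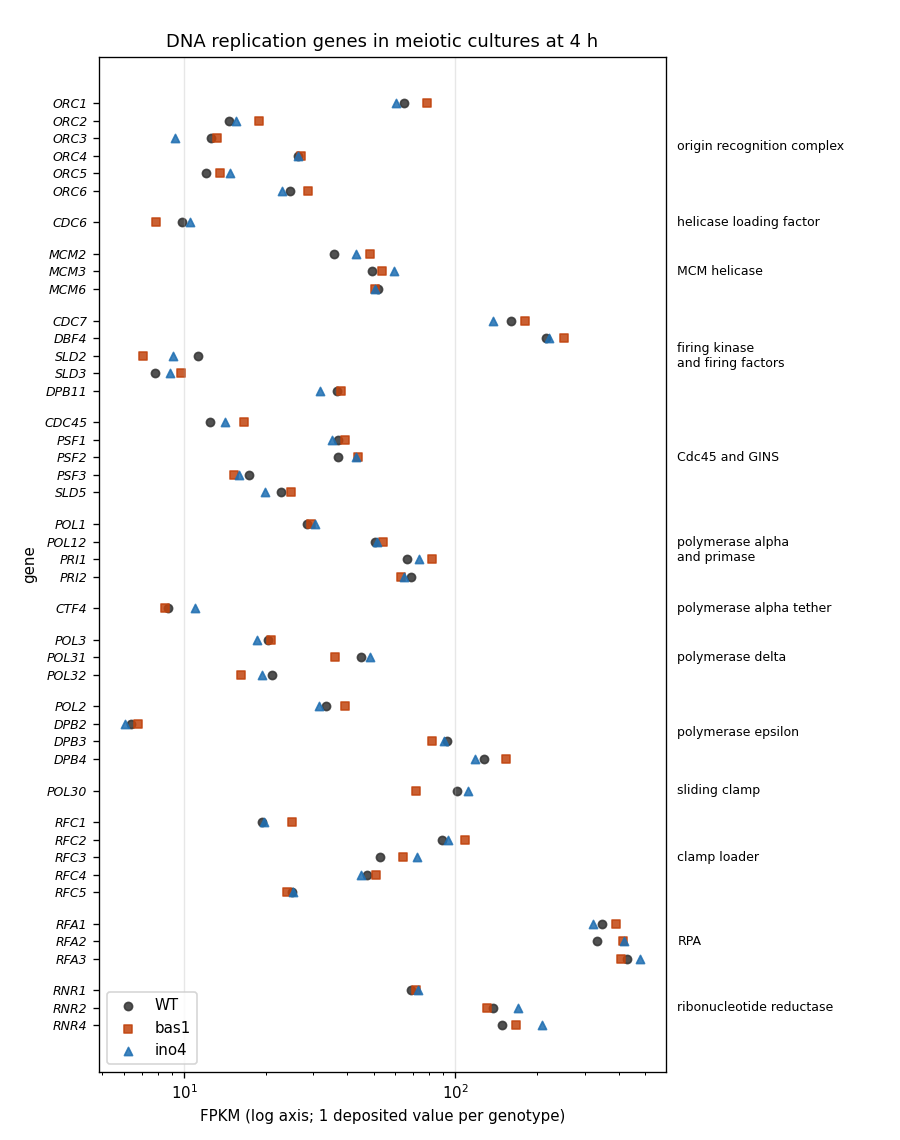
FPKM (horizontal log axis) of each of the 44 genes, grouped by complex, in WT (black circles), bas1 (red squares) and ino4 (blue triangles), with 1 deposited value per genotype and no error bars. The 3 markers of a gene lie close together beside the spread between genes, and the RPA genes lie farthest to the right, between 322 and 481.

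The origin recognition complex is made of 6 subunits. ORC1, whose product binds ATP and contacts Cdc6, had the highest level of the 6 in every genotype, with an FPKM of 64.8 (WT), 78.8 (bas1) and 60.6 (ino4). ORC2 had 14.7 (WT), 18.9 (bas1) and 15.6 (ino4), and ORC3 had 12.6, 13.2 and 9.27 in the same order. ORC4 was almost flat, with 26.4, 27.0 and 26.3. ORC5, the other ATP-binding subunit of this group in yeast, had 12.1 (WT), 13.6 (bas1) and 14.8 (ino4). ORC6, which in yeast carries sites for cyclin-dependent kinase, had 24.7, 28.7 and 23.0. All 6 were higher in bas1 than in WT, by 0.03 to 0.35 on the log2(FPKM + 1) scale, with a median difference of 0.18. The smallest of these differences were those of ORC4 (0.03) and ORC3 (0.06). Against WT in ino4, 4 of the 6 were lower, and the median was -0.05. Beside the counts by complex here and below, 49.4% of all entries compared were lower in bas1 than in WT. The share lower in ino4 than in WT was 50.6%, and the share lower in bas1 than in ino4 was 50%. ORC3 had the lowest difference of all 44 genes in ino4, -0.40, and was the highest of the 44 in bas1 relative to ino4, at 0.47.

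CDC6 encodes the ATPase that joins ORC at origins and recruits MCM. It had a low level, with an FPKM of 9.85 (WT), 7.91 (bas1) and 10.5 (ino4). The difference was -0.28 in bas1 against WT and 0.08 in ino4. CDC6 is listed at the position of YJL195C, which had 3.36 (WT), 2.00 (bas1) and 1.21 (ino4).

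MCM2, MCM3 and MCM6 encode subunits of the 6-part replicative helicase. MCM2 had 35.7 (WT), 48.4 (bas1) and 42.9 (ino4), and its difference of 0.43 in bas1 was the highest of the 44 genes against WT. MCM3 had 49.4, 53.5 and 59.4. It is listed at the position of YEL032C-A, which had 0 in each genotype. MCM6 had 52.0 (WT), 50.5 (bas1) and 50.4 (ino4), so the helicase genes did not move as a unit. The other subunits of the ring are no members of the set but were read from the same table. MCM4 had 33.6, 46.7 and 42.4, a pattern with WT lowest like that of MCM2, MCM5 had 117, 136 and 111, and MCM7 had 33.1, 33.9 and 45.1. Over all 6 subunits the median difference was 0.16 in bas1 against WT, with 5 of the 6 higher, and 0.26 in ino4 against WT, with 4 of the 6 higher. MCM5 was the most abundant of the 6, and the highest and lowest of the ring differed 3.53-fold in WT.

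The kinase that fires origins had high levels beside its targets. CDC7, the catalytic subunit, had an FPKM of 159.9 (WT), 181 (bas1) and 137 (ino4). DBF4, the activating subunit, had 217, 251 and 222. In WT, CDC7 lay above 79.1% and DBF4 above 83.7% of all entries compared. CDC7 is also required in meiosis for steps after replication, including DNA break formation. Both genes are listed at the position of another entry, YDL016C for CDC7 and YDR053W for DBF4, whose values in WT were 11.3 and 17.0. The firing factors, which bridge kinases and helicase, were far lower. SLD3, which binds Cdc45, had 7.84, 9.78 and 8.88. DPB11, a scaffold with BRCT repeats, had 36.6, 37.9 and 31.7.

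SLD2, whose product binds Dpb11 once phosphorylated, had the largest difference from WT of the 44. Its FPKM was 11.3 (WT), 7.07 (bas1) and 9.07 (ino4), so WT was the highest of the 3. In FPKM without the pseudocount, SLD2 was 1.60-fold lower in bas1 than in WT. On the log2(FPKM + 1) scale, which the fold rules use, its difference was -0.61 in bas1 and -0.29 in ino4. It was the only gene of the 44 at least 1.5-fold lower in bas1 than in WT, where 7.33% of all entries were, and no gene of the 44 was 1.5-fold higher, where 3.98% of entries were. The difference for SLD2 no longer reached 1.5-fold with a pseudocount of 5, where it was -0.43, or under quantile normalization, where it was -0.49.

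Cdc45 and the GINS complex turn loaded MCM into a moving helicase. CDC45 had an FPKM of 12.5 (WT), 16.7 (bas1) and 14.2 (ino4), a difference of 0.39 in bas1 that was second only to MCM2. The GINS genes lay within 3-fold of each other. PSF1 had 37.1, 39.0 and 35.0, and PSF2 had 37.0, 43.7 and 43.0. PSF3 had 17.4 (WT), 15.3 (bas1) and 16.0 (ino4) and was the only one of these 5 genes below WT in bas1. SLD5 had 22.8, 24.9 and 19.96.

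Polymerase alpha with primase is the sole enzyme that starts new strands. POL1, the catalytic subunit, had 28.5 (WT), 29.4 (bas1) and 30.5 (ino4). POL12, the B subunit, had 50.5, 54.0 and 51.5. These were among the flattest of the 44, with differences of 0.04 and 0.09 in bas1 and 0.10 and 0.03 in ino4. PRI1, the catalytic primase subunit, had 66.1 (WT), 82.0 (bas1) and 73.2 (ino4). PRI2, the large primase subunit, had 68.7, 63.1 and 64.4, so the primase genes, level with each other in WT, lay on opposite sides of WT in both mutants. CTF4, which tethers polymerase alpha to GINS, had 8.72, 8.52 and 11.02, a difference of 0.31 in ino4.

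Polymerase delta and polymerase epsilon each had genes on both sides of WT in bas1, though in polymerase epsilon only DPB3 was lower. Among the polymerase delta genes, POL3, the catalytic subunit, had 20.4 (WT), 20.9 (bas1) and 18.5 (ino4). POL31, the essential small subunit, had 45.0, 35.9 and 48.3, a difference of -0.32 in bas1. POL32, the subunit that contacts PCNA, had 21.2, 16.3 and 19.4, a difference of -0.36 in bas1. The median of the 3 was -0.32 in bas1 against WT, the lowest of the complexes with more than a single gene, and -0.12 in ino4. Pol31 and Pol32 are also subunits of the translesion polymerase zeta. Among the polymerase epsilon genes, POL2, the catalytic subunit, had 33.3, 39.4 and 31.5. DPB2, the essential accessory subunit, had the lowest level of all 44 genes in each genotype, with 6.36, 6.75 and 6.05. DPB3 and DPB4 encode small histone-fold subunits. DPB3 had 93.4, 81.7 and 90.6, and DPB4 had 127, 154 and 118. DPB3 is listed at the position of YBR277C, which had 2.66 (WT), 1.32 (bas1) and 1.71 (ino4), a difference of -0.65 in bas1. The epsilon genes had a median difference of 0.16 in bas1, with 3 of 4 higher, and of -0.07 in ino4, with 4 of 4 lower by 0.11 or less. Without DPB3, which overlaps another entry, the median in bas1 was 0.24. The difference of DPB2 in ino4 changed sign under quantile normalization. Levels within polymerase epsilon ran over a 20.01-fold range in WT, against 2.21-fold within polymerase delta.

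POL30 encodes PCNA, the sliding clamp that holds polymerases on DNA and docks repair and chromatin factors. Its FPKM was 101 (WT), 71.6 (bas1) and 112 (ino4), so bas1 was the lowest of the 3. The difference was -0.49 in bas1 against WT, 0.14 in ino4 against WT and -0.63 in bas1 against ino4. It was the only gene of the 44 that was 1.5-fold lower in bas1 than in ino4, where 8.22% of all entries were, and none was 1.5-fold higher, where 6.79% were. POL30 is listed at the position of YBR089W, which had 10.1 (WT), 3.88 (bas1) and 8.07 (ino4), a difference of -1.19 in bas1. POL30 lies next to another member, RFC5, on chromosome II. In R64 the genes point towards each other with 160 bases between them. RFC5 had 24.9, 24.03 and 25.3, a difference of -0.05 in bas1, so the neighbours did not share the lower value.

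The clamp loader RFC opens PCNA with ATP and sets it on primer ends. RFC1, the large subunit, had 19.4 (WT), 24.9 (bas1) and 19.7 (ino4). It is listed at the position of YOR218C, which had 3.62, 6.74 and 3.81. RFC2 had 89.4, 109 and 94.0, and RFC4 had 47.3, 51.2 and 44.8. RFC3 had 52.9 (WT), 64.3 (bas1) and 72.2 (ino4), and its difference of 0.44 in ino4 was second to that of RNR4. The loader genes had a median difference of 0.28 in bas1, with RFC5 the only one of 5 that was below WT, and the difference of the clamp was -0.49. Without RFC1, which overlaps another entry, the median was 0.19. In ino4 the median was 0.02. RFC2 to RFC5 also serve in the alternative loaders built on Ctf18, Elg1 and Rad24.

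RPA had the highest levels of the set. RFA1, the large DNA-binding subunit, had an FPKM of 348 (WT), 389.7 (bas1) and 322 (ino4). RFA2, a target of cell cycle and checkpoint kinases, had 333, 414 and 418. RFA3, the smallest subunit, had 429, 408 and 481. In WT the 3 lay above 88.9% to 91.7% of all entries compared, within 1.29-fold of each other. RFA2 was higher in both mutants, by 0.32 in bas1 and 0.33 in ino4, and RFA1 and RFA3 lay on opposite sides of WT in each mutant.

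Ribonucleotide reductase makes deoxyribonucleotides from ribonucleotides. RNR1, the usual large subunit, was flat, with 68.7 (WT), 71.4 (bas1) and 73.1 (ino4). RNR4, a small subunit, had 149, 168 and 209.6, and its difference of 0.49 in ino4 was the highest of the 44 against WT. RNR2, the other small subunit, had 138, 131 and 169.6, a difference of 0.30 in ino4. All 3 reductase genes of the set were higher in ino4 than in WT and higher in ino4 than in bas1. Their median against WT was 0.30, which is the value of RNR2. RNR3, a large subunit gene outside the set, had a difference of -0.29 in ino4 against WT and of -0.38 in bas1 against ino4. RNR2 is listed at the position of YJL026C-A, whose values of 389 (WT), 389 (bas1) and 328 (ino4) were above those of RNR2, so the level of RNR2 is uncertain. RNR1 shared 9 of 2638 words of 30 bases with its paralog RNR3, and MCM6 shared 9 of 3025 with MCM7. The coding sequences of the other 42 genes shared none with a gene elsewhere.

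**Figure D3:**
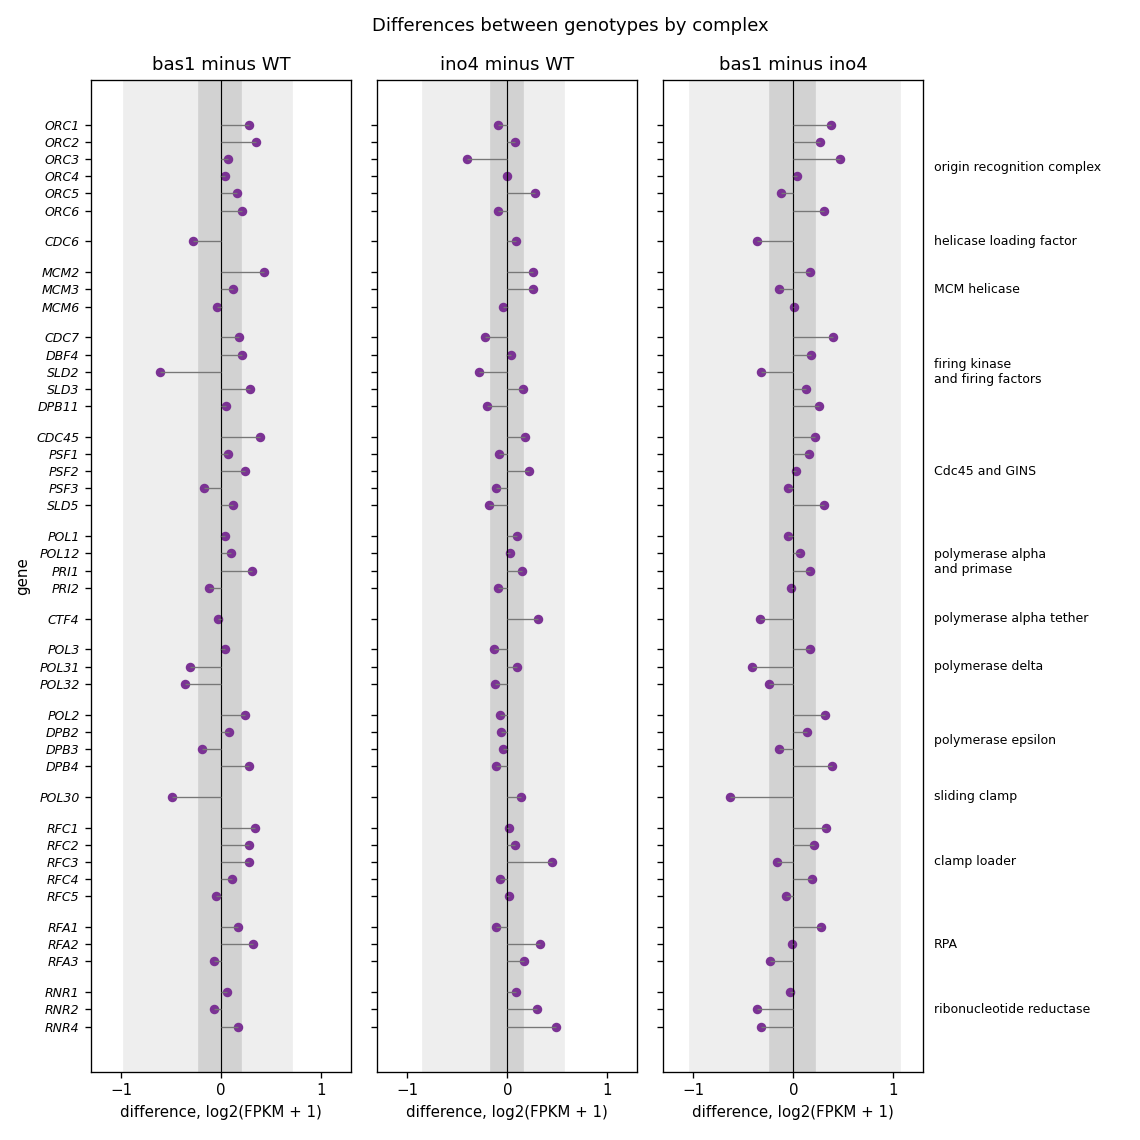
Difference in log2(FPKM + 1) (horizontal axis) of each of the 44 genes, grouped by complex, for the 3 pairs of genotypes, with light and dark grey bands for the central 95% and 50% of all 6153 entries. All 44 points lie inside the light band in each panel, with SLD2 (-0.61) and POL30 (-0.49) farthest to the left in bas1 minus WT.

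Across the set, the comparison of bas1 with WT had more genes above WT than below. Of the 44, 31 were higher in bas1 and 13 lower (29.5% lower, against 49.4% of all entries). The median difference was 0.10, beside 0.0051 over all entries. Differences were small, under 0.25 in size for 28 of the 44 (63.6%, against 56.7% of all entries). Outside the central 50% of all entries lay 15 genes on the high side and 5 on the low side, and none lay beyond the central 95%. The share below WT was 9 of 36 among genes that overlap no other entry and 4 of 8 among those that do.

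In the comparison of ino4 with WT the genes were spread evenly. Of the 44, 24 were higher and 20 lower in ino4 (45.5% lower, against 50.6% of all entries). The median was 0.022, beside -0.0031 over all entries, and 34 of the 44 differed by less than 0.25 (77.3%, against 69% of all entries). The differences ran from -0.40 for ORC3 to 0.49 for RNR4. None of the 44 was 1.5-fold apart from WT, where 6.94% of all entries were (2.32% higher and 4.62% lower). This comparison and that of bas1 use the same WT values, so a gene such as MCM2, RFA2 or SLD2, which kept to a single side of WT, does not give a pair of separate results.

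The comparison of bas1 with ino4 does not use WT. In it 25 genes were higher in bas1 and 19 lower (43.2% lower, against 50% of all entries), with a median of 0.054, beside 3.3e-05 over all entries, and 26 of the 44 differed by less than 0.25 (59.1%, against 54.6%). The values ran from -0.63 for POL30 to 0.47 for ORC3. Besides POL30, POL31 (-0.42), CDC6 (-0.37), RNR2 (-0.37), CTF4 (-0.34), RNR4 (-0.32) and SLD2 (-0.32) were lowest, and besides ORC3, CDC7 (0.40), DPB4 (0.39) and ORC1 (0.37) were highest.

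Genes with and without an MCB box were set side by side. Of the 18 with a box, 8 were lower in bas1 than in WT, among them SLD2, POL30, POL32, POL31 and CDC6. The other 10 were higher, among them CDC45 (0.39) and RFA2 (0.32). All 5 genes with a pair of boxes were higher, these and RFA1 (0.16), POL12 (0.09) and POL1 (0.04). Of all entries compared, 49.4% were lower in bas1 than in WT. The share among other genes with a pair of boxes is not given here. Of the 26 without a box, 5 were lower and 21 higher. The median difference was 0.04 with a box and 0.16 without. The range was from -0.61 to 0.39 with a box and from -0.19 to 0.43 without, so the groups overlapped and the lowest values belonged to genes with a box. In ino4 against WT the medians were -0.02 and 0.05, with 9 of 18 and 11 of 26 lower. This split was made with the values known and was not tested. Among the other genes of the genome that were compared, the 161 with a box had a median of 0.03 in bas1 against WT, with 42.9% lower, and the 5305 without had 0.0079, with 49.1% lower. In ino4 against WT these groups had medians of -0.02 and -0.0033, with 57.1% and 50.7% lower.

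**Figure D4:**
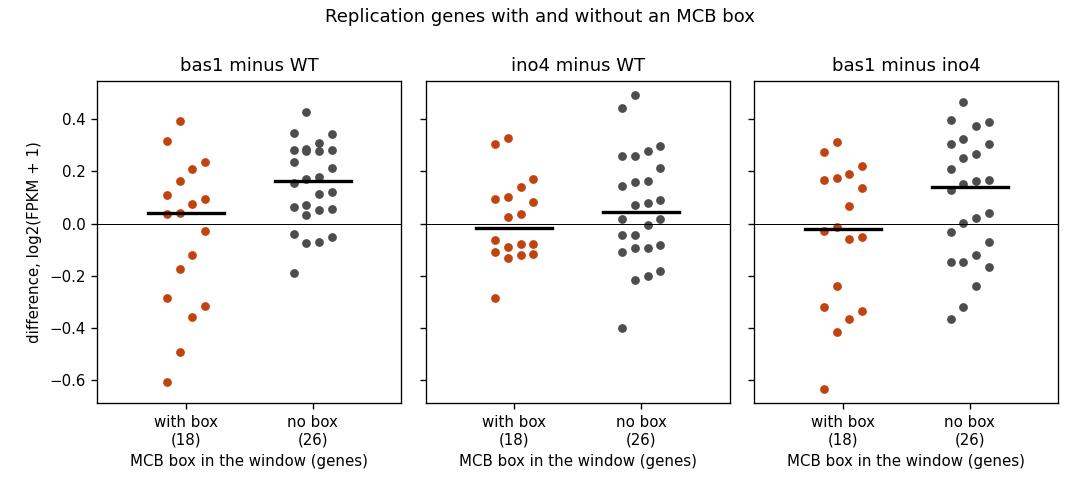
Difference in log2(FPKM + 1) (vertical axis) of the 18 replication genes with an MCB box in the window (red) and the 26 without (grey) for the 3 pairs of genotypes; each point is a gene and the black bar is the median. In bas1 minus WT the points with a box run from -0.61 to 0.39, and those without a box from -0.19 to 0.43.

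The genes of MBF itself were read from a list of S phase control genes. MBP1, which encodes its DNA-binding subunit, had an FPKM of 25.03 (WT), 15.5 (bas1) and 19.3 (ino4), a difference of -0.65 in bas1 and -0.36 in ino4. SWI6, its other subunit, named after its values were seen, had 47.2, 37.4 and 37.4, a difference of -0.33 in each mutant. SWI4, NRM1 and STB1 of the same list, also named after their values were seen, differed by 0.13, 0.08 and -0.15 in bas1. The cyclin kinase inhibitor gene SIC1 had 68.3, 43.7 and 87.8, a difference of -0.63 in bas1 and 0.36 in ino4. At the other end, the meiotic kinase gene IME2 had 1841, 2511 and 1834, and CDC28, the cyclin-dependent kinase gene, had 350.04, 468 and 397. CLB6, an S phase cyclin gene, had 10.9, 11.6 and 6.65, a difference of -0.64 in ino4. Of the 12 genes in the list, 0 were 2-fold apart from WT in either mutant. Their median was 0.05 in bas1, with 5 lower and 7 higher, and -0.04 in ino4, with 9 lower and 3 higher. A link between the levels of the MBF genes and those of genes with a box was not tested.

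Other genes of the fork and of origins were also not 2-fold apart. Of 21 such genes, MCM4, MCM5 and MCM7 among them, 0 were 2-fold apart in any of the 3 comparisons. The median was 0.05 in bas1 against WT and 0.02 in ino4. In bas1, 12 were higher and 9 lower than WT, beside 31 and 13 of the 44 replication genes. Against ino4, 10 were higher in bas1 and 11 lower. RAD27, the flap nuclease gene of lagging strand maturation, had 13.2 (WT), 8.72 (bas1) and 14.35 (ino4), a difference of -0.55 in bas1. SLD7, listed as YOR060C, whose product partners Sld3, had 12.6, 8.78 and 9.499, a difference of -0.47 in bas1 and -0.37 in ino4. On the high side in bas1, MCM4 and ELG1, the latter encoding the PCNA unloader, had differences of 0.46 and 0.28. In ino4 the lowest of the list were MCM10, an initiation factor gene, at -0.51 and then SLD7, and the highest were MCM7 at 0.43 and RNH201, a ribonuclease H2 subunit gene, at 0.42.

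Among 11 genes of nucleotide supply, 0 were 2-fold apart from WT in either mutant, with a median of 0.06 in bas1 and 0.12 in ino4. HUG1, a small inhibitor of ribonucleotide reductase that is induced by DNA damage, had 72.9 (WT), 146 (bas1) and 83.7 (ino4), a difference of 0.995 in bas1, just under the 2-fold rule. In FPKM without the pseudocount it was 2.01-fold higher in bas1 than in WT, so its place under the rule depends on the pseudocount. Its entry is only 207 bp long. RNR3, the damage-inducible large reductase subunit gene, had 6.69, 3.83 and 5.29, so in bas1 these damage-inducible genes lay on opposite sides of WT. DIF1, listed as YLR437C, which directs the small reductase subunits to the nucleus, had 376, 500.5 and 432, a difference of 0.41 in bas1. DUT1, the dUTPase gene, had 53.3, 45.5 and 92.2 and was the only gene of the list 2-fold lower in bas1 than in ino4, where 2.78% of all entries were. Its difference was 0.78 in ino4 against WT.

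Histone genes, which are transcribed with S phase in the mitotic cycle, were all lower in bas1. Of the 8 core histone genes, 8 were lower in bas1 than in WT, by 0.14 to 0.63, with a median of -0.48, and 0 were 2-fold apart. Of all entries compared, 49.4% were lower in bas1 than in WT. In ino4 against WT the median was -0.12, with 6 of 8 lower, where 50.6% of all entries were. Each core histone is encoded by a pair of near-identical genes, so reads can be shared out between the copies and the 8 values are not separate results. HTA2 had 297 (WT), 192 (bas1) and 291 (ino4).

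Stage markers of the cultures moved with the genotypes. The 11 middle meiosis markers had a median difference of 0.88 in bas1 against WT, with 4 at least 2-fold higher, and of -0.50 in ino4, with 4 at least 2-fold lower, and in each case all 11 lay on the same side of WT. CDC5, the polo kinase gene, had 144 (WT), 409 (bas1) and 112 (ino4). The 8 early meiosis markers had a median of 0.22 in bas1, with 7 of 8 higher, and 0.15 in ino4, with 6 of 8 higher. The 8 vegetative G1 and daughter cell genes had a median of -0.37 in bas1, with 6 of 8 lower and CLN1 and CTS1 at least 2-fold lower, and 0.04 in ino4. CLN1, a G1 cyclin gene, had 24.1 (WT), 10.3 (bas1) and 24.4 (ino4). Of all entries compared, 2.34% were at least 2-fold lower in bas1 than in WT. The shares lower than WT by any amount were 49.4% in bas1 and 50.6% in ino4. No gene of these lists was listed at 0 in a genotype. The part of culture stage in the differences of the replication genes was not tested.

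**Figure D5:**
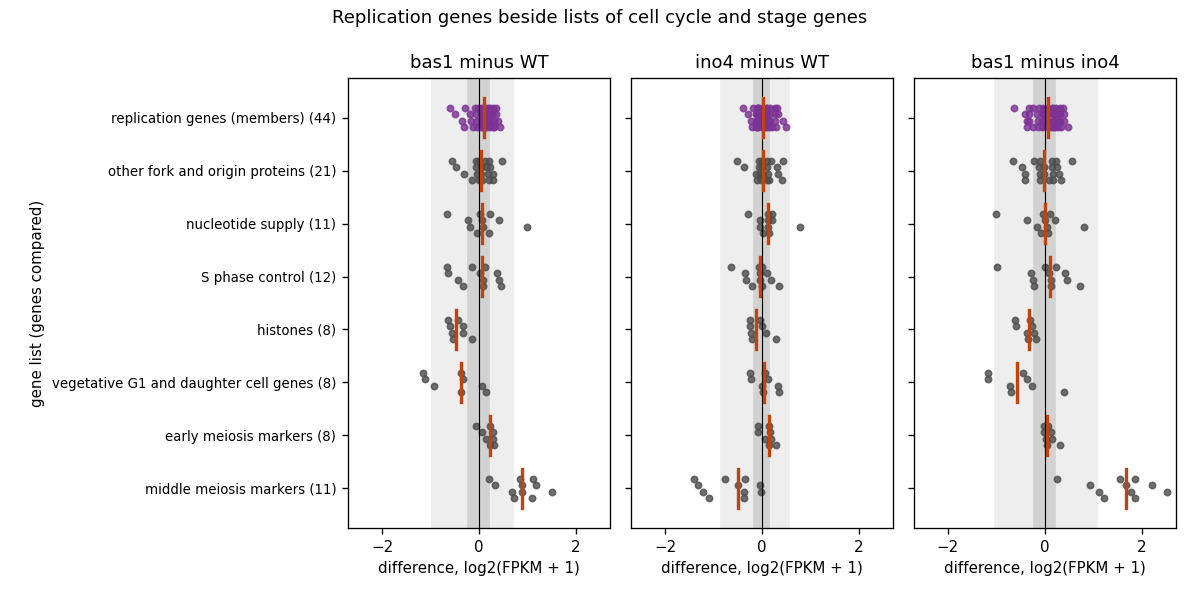
Difference in log2(FPKM + 1) (horizontal axis) of the 44 replication genes (purple) and of 7 lists of other genes (grey) for the 3 pairs of genotypes; each point is a gene, red bars are medians, and grey bands are the central 95% and 50% of all entries. The replication genes have medians of 0.10, 0.022 and 0.054, and the middle meiosis markers have 0.88, -0.50 and 1.67.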

How the data were processed

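Per the labels, cells were grown in acetate medium at 30 °C, moved to 2% potassium acetate and sampled at 4 h. Total RNA was made into libraries with an Illumina kit. STAR and Cufflinks were used with the build sacCer2, per the submitters' processing notes, which give no versions or settings. The authors' deposited values are FPKM, with 1 column per genotype per the file headers, and the way in which the 2 samples of each genotype became 1 value is not given in the sources used here. FPKM multiplied by length gave whole reads for at most 13.5% of low values at the best of many units (within 0.05 reads, where a fixed unit gives 10% by chance), so reads were not recovered and the depth is unknown.

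Values were compared as log2(FPKM + 1) without further scaling (Python 3.11.15, pandas 2.3.3, NumPy 2.4.6), which understates the change of low genes. The limma test named in the design for a table with a column per sample could not be run, so counts and medians are given beside those of all entries. The steps were tested on simulated data. Members, lists, motifs and comparisons were chosen with earlier results of these data known. All members are named, and from each list the genes at least 2-fold apart, up to 4, or else the 2 largest differences in each direction could be named. Windows were read from R64 by gene symbol (44 of 44 matched), not from the table's positions, since 38 of 44 members had the same length in R64 but only 5 the same start. Alternatives tried were pseudocounts of 0.1 and 5, other filters, 3 scalings, a 1.5-fold rule and leaving out overlapping entries.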

Additional observations from a re-analysis of the deposited data

How the results depend on the processing

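With a 1.5-fold rule in place of the 2-fold rule, 1 of the 44 genes was apart in bas1 against WT, SLD2. It was not apart with a pseudocount of 5 or under quantile normalization. In bas1 against ino4, 1 gene was apart, POL30, and in ino4 against WT 0 were. POL30 overlaps another entry, and among genes that overlap no other entry 0 were 1.5-fold apart in bas1 against ino4. The count of genes 2-fold apart was 0 in every comparison under the other alternatives run. Over the pseudocounts, filters, scalings and the set without overlapping entries, the median of the members ran from 0.095 to 0.13 for bas1 minus WT, from 0.0063 to 0.052 for ino4 minus WT and from 0.049 to 0.098 for bas1 minus ino4. An alternative was counted as moving a median or a gene when the change was 0.1 or more on the log2 scale. Quantile normalization moved 9 of 132 differences of single genes and changed the sign of 4, all near 0 as reported, those of CTF4 and RFC5 in bas1 and of DPB2 and ORC4 in ino4, and a pseudocount of 5 moved 4; the cause was not tested. Leaving out the 8 overlapping genes lowered the median of the firing kinase and firing factors in bas1 from 0.18 to 0.05, since CDC7 and DBF4 then drop out, that of the MCM helicase in ino4 against WT from 0.26 to 0.11, and that of the clamp loader in bas1 against ino4 from 0.19 to 0.06, and brought that of ribonucleotide reductase in bas1 against ino4 from -0.32 to -0.18. No scaling moved the median of all entries by as much as 0.1. No paired analysis was possible because the table has no column per sample, and for the same reason no replicate could be left out. With 1 value per genotype and unknown depth, none of the differences can be set against sample or counting error.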

Other observations

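The order of the genotypes within a gene was counted over the set. The most frequent order had ino4 lowest and bas1 highest, in 14 of the 44 genes (31.8%, against 20.5% of all entries compared), among them CDC7, ORC1, RFA1, POL2 and DPB4. The next had WT lowest and bas1 highest, in 10 genes (22.7%, against 17.6%), among them MCM2 and CDC45. The order with ino4 lowest and WT highest was found in 1 gene, MCM6 (2.27%, against 11.9%), whose 3 values lie within 1.03-fold of each other. The middle meiosis markers also had ino4 below WT and bas1 above it, and the link between these orders was not tested.

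POL2 and ORC5 are neighbours on chromosome XIV, on the same strand with 219 bases between them in R64. POL2 had an FPKM of 33.3 (WT), 39.4 (bas1) and 31.5 (ino4), and ORC5 had 12.1, 13.6 and 14.8, so bas1 was above WT in both and ino4 was below WT in POL2 only.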
